A study of Mus musculus with 4 samples.

Results

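The secreted Wnt inhibitors are 10 genes, chosen by name, whose rows were taken from the deposited matrix of 20325 gene symbols. All 10 had a row: the secreted Frizzled-related genes Sfrp1, Sfrp2, Sfrp4, Sfrp5 and Frzb, the Dickkopf genes Dkk1, Dkk2 and Dkk3, and Notum and Wif1. RNA was sequenced in 4 libraries of C3H10T1/2, a multipotent mesenchymal line derived from C3H mouse embryos. In 2 libraries the cells stably expressed FLAG-HA-tagged H3.3, a histone variant, in its wild type form (WT), and in 2 they expressed tagged H3.3 in which lysine 36 is replaced by methionine (K36M). All cells were at passage 10 to 15 and grew in DMEM with 10% fetal bovine serum. Every library thus carries a tagged H3.3, and cells without one were not analysed here. The labels do not say whether a line is 1 clone or a pool, or whether each replicate had its own culture. The p-values therefore describe the spread among these 4 libraries, which may be technical and is estimated largely from all tested genes together.

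Wnt proteins are lipid-modified signals that bind Frizzled receptors and the coreceptors Lrp5 and Lrp6 and so stabilise beta-catenin. Cells limit them with secreted inhibitors that act at different steps. Secreted Frizzled-related proteins carry a domain like the Wnt-binding domain of Frizzled and bind Wnts outside the cell. Wif1 also binds Wnts directly. Dkk1 instead occupies Lrp5 and Lrp6, helped by Kremen receptors, Dkk2 does so more weakly, and Dkk3 is a divergent family member. Notum is an enzyme that removes the lipid from Wnts. In mesenchyme these genes are known for their part in cartilage, bone and fat formation, and several, Notum and Dkk1 among them, are also induced by Wnt signaling as feedback inhibitors.

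RefSeq promoter sequences (GRCm38.p6, from 250 bases before to 50 bases after the start) were held for 6 of the 10 genes: Sfrp2, Sfrp5, Frzb, Dkk1, Dkk2 and Wif1. The promoters of Sfrp2 and Frzb, both far lower in K36M cells, and of Dkk1, close to the detection limit in all libraries, are shown from 250 bases before the start up to it. Capitals mark the core letters of the TCF/LEF motif, CTTTGA or its reverse complement TCAAAG, which is the motif bound by the transcription factors of the Wnt pathway. The Sfrp2 promoter lies at chr3:83766071-83766320 (plus strand), that of Frzb at chr2:80447397-80447646 (minus strand) and that of Dkk1 at chr19:30549497-30549746 (minus strand).
Sfrp2: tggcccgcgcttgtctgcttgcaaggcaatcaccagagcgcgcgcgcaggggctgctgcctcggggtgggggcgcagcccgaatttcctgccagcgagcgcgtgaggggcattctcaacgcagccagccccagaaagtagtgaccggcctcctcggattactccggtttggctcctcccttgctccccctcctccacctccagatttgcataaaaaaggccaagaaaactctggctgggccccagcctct
Frzb: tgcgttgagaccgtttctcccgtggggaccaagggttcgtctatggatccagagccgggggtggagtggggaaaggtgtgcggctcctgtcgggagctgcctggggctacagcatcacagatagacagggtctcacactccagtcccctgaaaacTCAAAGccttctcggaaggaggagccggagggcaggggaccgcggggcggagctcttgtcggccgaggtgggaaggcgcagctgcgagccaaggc
Dkk1: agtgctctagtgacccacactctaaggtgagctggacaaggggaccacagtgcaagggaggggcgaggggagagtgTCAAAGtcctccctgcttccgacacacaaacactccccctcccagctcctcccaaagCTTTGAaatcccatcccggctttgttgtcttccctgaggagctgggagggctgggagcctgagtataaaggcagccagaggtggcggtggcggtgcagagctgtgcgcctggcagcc
Both strands of the 300-base windows were searched. Frzb had 1 match, beginning 95 bases before the start, and Dkk1 had 2, beginning 174 and 117 bases before it. No match was in the windows of Sfrp2, Sfrp5, Dkk2 or Wif1. Of all 32851 promoters 16% held at least 1 match and 1.73% at least 2. The letters TATAAA or their reverse complement TTTATA, in 13.6% of all promoters, were found 54 bases before the start of Dkk1, 32 before that of Dkk2 and 232 before that of Wif1. Observed over expected CpG was 0.682 for Sfrp2, 0.646 for Frzb, 0.622 for Sfrp5, 0.848 for Wif1, 0.499 for Dkk2 and 0.327 for Dkk1, with a median of 0.384 over all promoters and 0.737 over those of tested genes. The Sfrp2 and Frzb promoters thus had similar CpG content and differed in the TCF core letters. A match describes letters only and is not a binding site.

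The make-up of the inhibitors differed almost completely between WT and K36M cells. WT cells had mostly Sfrp2 and Frzb transcripts, and K36M cells kept 0.204% of the WT level of Sfrp2 and 1.26% of that of Frzb. Notum, Sfrp1 and Dkk3 were higher in K36M cells, Notum 20.4-fold. The other 5 genes, Sfrp4, Sfrp5, Dkk1, Dkk2 and Wif1, were close to the detection limit in both groups. Levels are given as CPM, in which the expected count of a gene is set against the TMM-scaled size of its library (edgeR). In bulk RNA, fewer cells with a transcript and less of it per cell cannot be told apart.

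**Figure D1:**
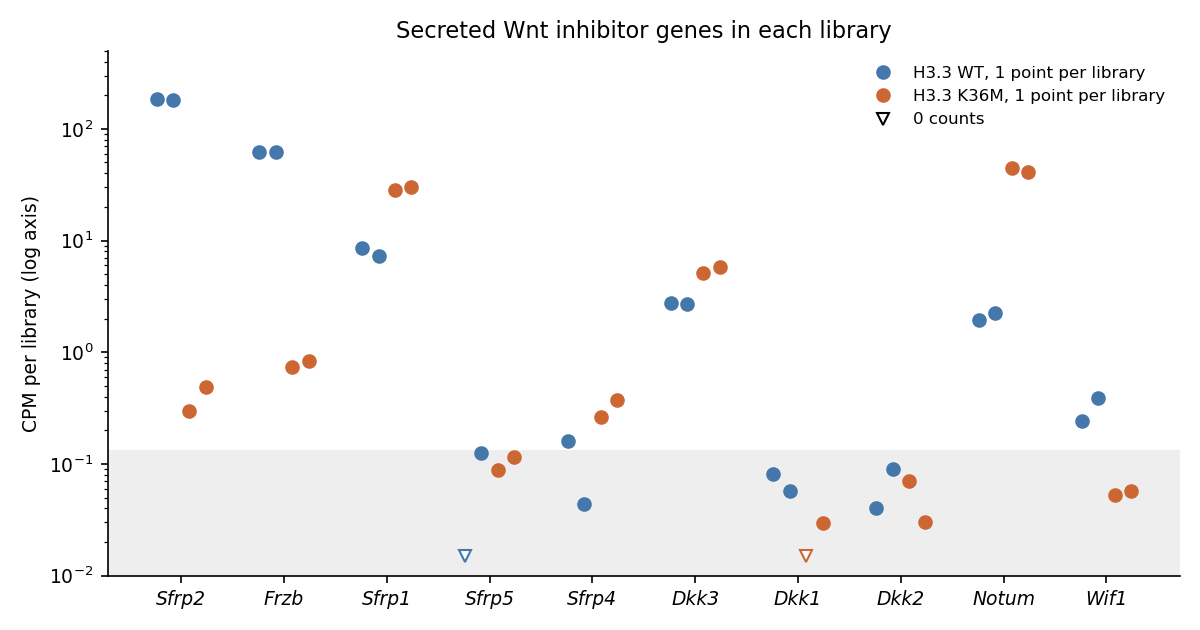
Level of the 10 genes in each library, in CPM on a log axis, with 1 point per library and open triangles for 0 counts. The grey band is the range below 3 counts in the shallowest library (0.13 CPM). Sfrp2, Frzb, Sfrp1, Dkk3 and Notum separate the 2 groups, with every point above the band. Of these, Sfrp2 in K36M, at 0.299 and 0.489 CPM, comes closest to the band. Dkk1, Dkk2 and Sfrp5 lie within it in every library.

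Library totals ran from 23343297 to 56041798 expected counts, and each of the K36M libraries was deeper than each WT library. H3f3a and H3f3b, the endogenous H3.3 genes, stood at 687 to 694 and 981 to 1019 CPM in WT and at 389 to 409 and 812 to 844 CPM in K36M. Transgene reads may or may not be part of these counts, which therefore do not check the labels. All 13 mesenchymal markers on the list were above 1 CPM in every library, but 5 rose and 7 fell in K36M cells. That is 92.3% called at an edgeR adjusted p under 0.05, beside 75.6% of all tested genes (38.5% higher and 37.1% lower). Among those that fell, Pdgfra, Pdgfrb and Ly6a did so by only 1.11-fold, 1.08-fold and 1.08-fold. Thy1 rose 11.2-fold and Twist2 2.51-fold, and Col3a1 and Col1a2 fell 2.88-fold and 1.72-fold. Their summed level was 31804 and 31450.5 CPM in the WT libraries and 25408 and 23698 in the K36M libraries. Marker sums for other cell types were not equal in WT and K36M either. The 7 blood and macrophage markers summed to 3.35 to 3.42 CPM in WT (3 at 0 counts) and to 33.9 to 35.6 in K36M (1 at 0), mostly from Hba-a1, with Ptprc at 0 counts in WT and 0.171 CPM in K36M. The 5 epithelial markers summed to 5.74 to 6.01 CPM in WT (3 at 0) and to 23.45 to 25.04 in K36M (2 at 0), mostly from Cdh1, with Epcam at 0 counts in all 4 libraries. The 5 endothelial markers summed to 38.1 to 39.6 CPM in WT (1 at 0) and to 16.6 to 18.5 in K36M (0 at 0). Tek led the sum in WT, with 28.1 CPM, and Vwf in K36M, with 10.6 CPM, and Pecam1 was at 0.136 CPM or less in both group means. The 5 neural and glial markers summed to 5.30 to 5.58 CPM in WT (0 at 0) and 3.51 to 3.60 in K36M (1 at 0). The part of these markers in the results for the inhibitors was not tested.

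Sfrp2 is a secreted Wnt-binding protein of embryonic mesenchyme. Its level was 184.7 and 182.7 CPM in WT replicates 1 and 2 and 0.299 and 0.489 CPM in K36M replicates 1 and 2. The WT libraries differed by 1.01-fold, and both K36M libraries, with 17 counts each, lay far below them. The fall was 489-fold (log2 fold change -8.93, SE 0.09, edgeR quasi-likelihood test with Benjamini-Hochberg adjustment, adjusted p = 2.42e-22). Among the 13162 genes tested it was the 4th largest fall by fitted log2 fold change.

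Frzb, also called Sfrp3, is a Wnt-binding protein known from developing cartilage. The WT libraries had 61.8 and 62.2 CPM, and those of K36M cells 0.740 and 0.835 CPM. As for Sfrp2, WT replicates were nearly equal and K36M libraries kept a low, measurable level, 42 and 29 counts. The fall was 79.5-fold (log2 fold change -6.31, SE 0.09, edgeR adjusted p = 1.54e-20), the 38th largest among tested genes. Its count ratio had an exact interval of 63.2 to 103, again wider than the SE implies.

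Sfrp1, which binds Wnts too, belongs to the same subgroup of the family as Sfrp2 and Sfrp5. It moved opposite to Sfrp2, from 8.61 and 7.34 CPM in WT replicates 1 and 2 to 28.5 and 30.3 CPM in K36M replicates 1 and 2. The groups did not overlap and the rise was 3.67-fold (log2 fold change 1.88, SE 0.08, edgeR adjusted p = 3.43e-13). Divided by the length of their exons, Sfrp1 in K36M cells stayed far under Sfrp2 in WT cells, at 6.73 ± 0.282 against 85.3 ± 0.635 CPM per kilobase (SD, n = 2).

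Sfrp4 and Sfrp5, the remaining Frizzled-related genes, did not pass the low-count filter. Sfrp4 had 4 and 1 counts in WT and 15 and 13 in K36M. Pooled over each group that is 0.105 CPM (95% Poisson interval 0.0340 to 0.244) against 0.306 CPM (0.203 to 0.442), intervals that cover counting error only and that overlap. The count ratio was 2.92, with an exact interval of 1.11 to 9.70. Sfrp5 had 0 and 2.88 counts in WT and 5 and 4 in K36M, a ratio of 1.57 with an interval of 0.391 to 8.996, so no difference was detectable at this depth. A fit without the filter gave Sfrp4 an adjusted p of 0.0537 and Sfrp5 one of 0.654 (edgeR). Sfrp4 passed the threshold without WT replicate 1 (log2 fold change 2.73, adjusted p = 0.0300) and not without WT replicate 2 (0.91, adjusted p = 0.296).

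Notum, the enzyme that inactivates Wnts, was the inhibitor with the largest rise. WT replicates 1 and 2 had 1.94 and 2.26 CPM, and K36M replicates 1 and 2 had 44.4 and 41.0 CPM. All K36M values were far above the WT values, and replicates of a group lay within 1.17-fold of each other. The rise was 20.4-fold (log2 fold change 4.35, SE 0.10, edgeR adjusted p = 1.38e-17), the 387th largest among tested genes. With 100 counts in WT, the exact interval of the count ratio was 16.9 to 25.4, wider than the SE implies.

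Dkk3, the divergent Dickkopf gene, had 69 and 62 counts in WT and 289 and 200 in K36M. Its level rose from 2.78 and 2.69 CPM to 5.09 and 5.76 CPM, 1.96-fold (log2 fold change 0.97, SE 0.14, edgeR adjusted p = 4.87e-06). The groups were separate, though the difference was the smallest of the 5 that could be tested.

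Dkk1 and Dkk2, which act on Lrp5 and Lrp6, were hardly detected. Dkk1 had 2.03 and 1.31 counts in WT and 0 and 1.02 in K36M, and its WT over K36M ratio of 5.75 had an interval of 0.461 to 302. Dkk2 had 1 and 2.08 counts in WT and 3.99 and 1.05 in K36M, with a K36M over WT ratio of 0.870 and an interval of 0.169 to 5.60. For neither was a difference detectable at this depth. The pooled level of Dkk1 could be as high as 0.183 CPM in WT and 0.0609 CPM in K36M, the upper limits of the 95% Poisson intervals.

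Wif1, which binds Wnts through a domain unrelated to Frizzled, had 6 and 9 counts in WT and 3 and 2 in the deeper K36M libraries. Its level was 0.242 and 0.391 CPM in WT and 0.0528 and 0.0576 CPM in K36M, without overlap. The WT over K36M count ratio was 5.75, with an interval of 1.98 to 20.2. Wif1 was too low for the main test, and the edgeR fit without a low-count filter placed it below WT (log2 fold change -2.45, adjusted p = 0.00500).

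Of the 10 genes 5 passed the filter, and of those 3 were higher and 2 lower in K36M cells at an adjusted p under 0.05. That threshold was passed by 75.6% of all tested genes, 38.5% higher and 37.1% lower, a split that depends on scaling (4360 genes higher and 5709 lower with the authors' factors, 5542 and 4367 with total counts), so the count of calls by itself sets these genes apart from no others. The filter asks for about 0.337 CPM in 2 libraries. Sfrp2 reached that level in 2 WT libraries but in only 1 K36M library, so within a group it passed only where it was higher. Sfrp1, Frzb, Dkk3 and Notum met it in each group. At least 2-fold calls were less common, 21.3% of tested genes (12.7% higher and 8.69% lower). Of the 5 tested inhibitors 4 met that, Sfrp2, Frzb, Sfrp1 and Notum, and the other 5 of the 10 could not be called. The inhibitors were chosen with earlier results of these data known, so this share is a description only. In the authors' deposited table of 594 genes, which gives a ratio of the group means scaled by their own factors, Sfrp2 is 457-fold lower, Frzb 80.3-fold lower and Notum 18.9-fold higher in K36M. Sfrp1 and Dkk3 are not among its genes.

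To set the genes against each other, CPM were divided by the length of each gene's exons in GENCODE M21, since longer transcripts give more reads. In WT cells Sfrp2 led with 85.3 ± 0.635 CPM per kilobase (SD, n = 2), followed by Frzb with 19.1 ± 0.101 and Sfrp1 with 1.82 ± 0.205. Notum (0.871 ± 0.0947) and Dkk3 (0.815 ± 0.0190) came next and did not differ beyond their spread, and Wif1 stood at 0.130 ± 0.0434. Sfrp5, Dkk1, Sfrp4 and Dkk2 were at 0.0176 to 0.0329 CPM per kilobase and could not be ordered. In K36M cells Notum led with 17.7 ± 0.995 CPM per kilobase, followed by Sfrp1 with 6.73 ± 0.282 and Dkk3 with 1.61 ± 0.141. Frzb (0.243 ± 0.0208) and Sfrp2 (0.183 ± 0.0624), the leading genes of WT cells, were 4th and 5th there and did not differ beyond their spread.

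Summed over all 10 genes, the level was 108.6 and 107.8 CPM per kilobase in the WT libraries and 27.0 and 26.3 in the K36M libraries. The sum was therefore 4.06 times as high in WT. No test was run on this sum of genes chosen by name. With 2 libraries against 2 an exact permutation test cannot go below p = 0.333. Sfrp2 and Frzb made up 96.5% and 96.6% of the sum in the WT libraries and 1.36% and 1.84% in the K36M libraries. Notum alone made up 0.740% and 0.870% in WT and 68.3% and 64.6% in K36M, and Sfrp1 1.81% and 1.56% in WT and 24.2% and 26.3% in K36M. The 5 genes under the filter never summed to more than 0.737% of a library's total.

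**Figure D2:**
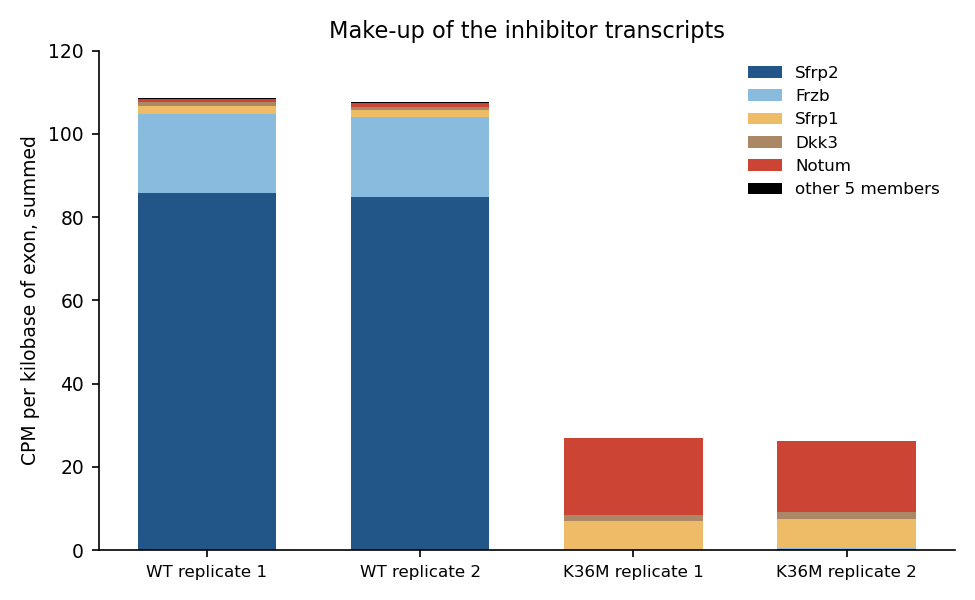
Summed level of the 10 inhibitor genes in each library, in CPM per kilobase of exon, stacked by gene. The WT bars reach 108.6 and 107.8 and consist almost wholly of Sfrp2 and Frzb, and the K36M bars reach 27.0 and 26.3 and consist mostly of Notum and Sfrp1.

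The genes flanking the 5 tested inhibitors on the chromosome mostly differed by much less than the inhibitors. Flanking genes were the nearest RefSeq gene on each side with a row in the matrix, and no other RefSeq gene overlapped any of the 10 inhibitors. Nearer genes without a row were passed over, 7 between Sfrp2 and Plrg1, 1 between Sfrp2 and Tlr2 and 3 between Dkk3 and Mical2. On each side of Sfrp1 2 were passed over, and on each side of Frzb 1. The levels of the genes passed over are unknown. Next to Sfrp2, Plrg1, a splicing factor gene, stood at 52.7 and 51.8 CPM in WT and 54.0 and 55.2 in K36M (edgeR adjusted p = 0.242, and 0.0404 with total counts). Tlr2, an innate immune receptor gene on the other side, was 1.78-fold lower (adjusted p = 1.65e-07) beside the 489-fold fall of Sfrp2. Next to Frzb, Dnajc10 was 1.19-fold lower (adjusted p = 1.18e-05) and Nckap1 had a log2 fold change of -0.07 (adjusted p = 0.0738), called with the authors' factors (0.000605) and without K36M replicate 2 (0.0308). Aspscr1, next to Notum, rose 1.55-fold (adjusted p = 3.10e-10), while Myadml2 on its other side had at most 0.0528 CPM in any library. Golga7, next to Sfrp1, was 1.11-fold lower (adjusted p = 0.00667), a call that was lost without WT replicate 2 (0.106), without K36M replicate 1 (0.0538) and with total counts (0.0581), and Zmat4 had at most 0.0352 CPM. Of 10 flanking genes of the 5 tested inhibitors, 8 were tested and 6 called, beside 75.6% of all genes. Of these, Mical2, an actin-regulating gene next to Dkk3 that was picked out after its values were seen, was the one past 2-fold. It stood at 73.3 and 70.7 CPM in WT and 339 and 335 CPM in K36M, a larger rise than that of Dkk3 itself.

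**Figure D3:**
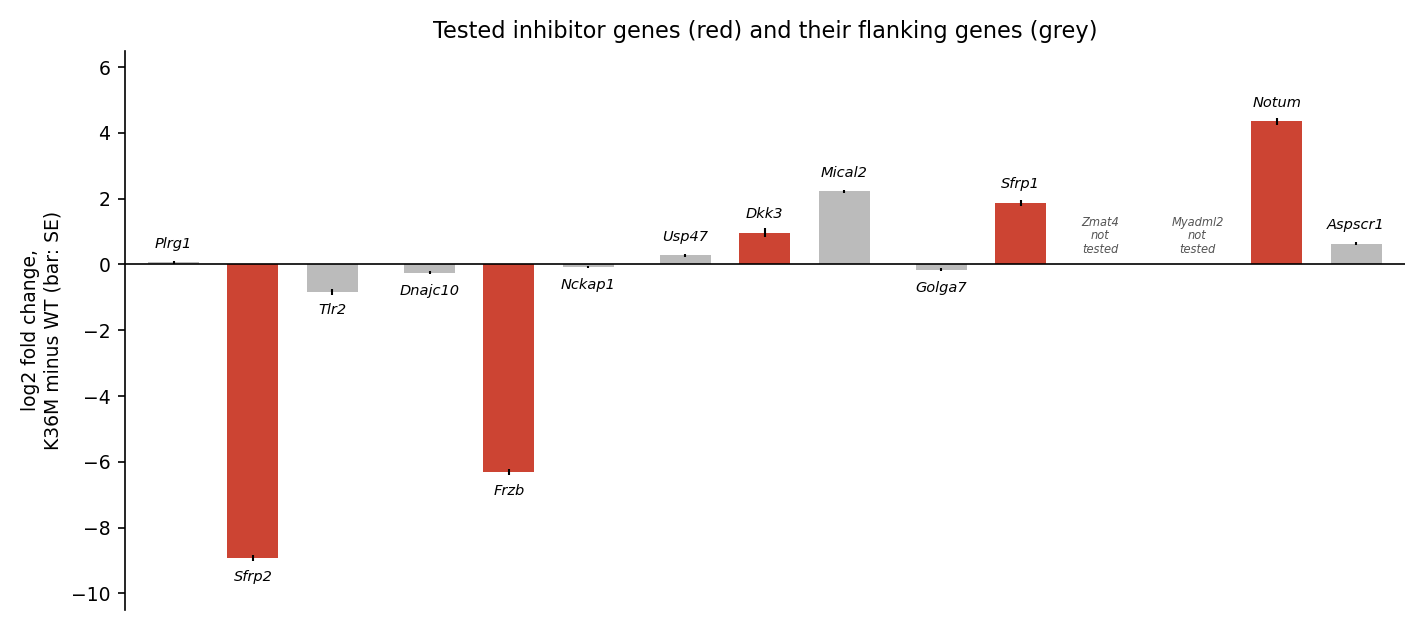
Fitted log2 fold change (K36M minus WT, bars, with SE) of the 5 tested inhibitor genes in red and of the flanking genes in grey, each inhibitor between its own neighbours. For Sfrp2, Frzb and Notum the SE is narrower than counting error. Sfrp2 (-8.93), Frzb (-6.31), Sfrp1 (1.88) and Notum (4.35) exceed their tested neighbours, while Dkk3 (0.97) lies below Mical2.

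Calls were about as frequent among other genes of the Wnt pathway as among all genes. Over the other Wnt pathway lists, 92 genes had a row and 67 were tested, of which 28 were higher, 26 lower and 13 not past the test (80.6% called, beside 75.6% of all tested genes), with a median log2 fold change of 0.015 against 0.0035 for all tested genes. With only genes of at least 5 CPM in either group, 17 were higher and 24 lower. Of 19 Wnt ligand genes 8 were tested, of which 5 rose and 1 fell (75% called, median 1.61). Wnt9a rose from 1.43 ± 0.308 to 7.93 ± 0.440 CPM (SD, n = 2) and Wnt6 and Wnt7b 5.54-fold and 5.17-fold. With 16 and 20 counts in WT, Wnt6 and Wnt7b had count ratio intervals of 3.36 to 10.0 and 3.29 to 8.73. Wnt7a, with 1 count in WT, passed the filter only through K36M and had a count ratio interval of 8.60 to 1959. Wnt5a, a ligand of noncanonical signaling with the highest CPM of the ligands, rose 1.80-fold. Wls, the carrier that exports Wnts, rose 1.45-fold.

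Several receptor genes fell by large factors. Of 15 tested Frizzled receptors and coreceptors 9 fell and 2 rose. That is 73.3% called beside 75.6% of all tested genes, and their median of -0.24 lies between the 25th and 75th percentiles of all tested genes (-0.35 to 0.41). From 8 to 10 fell under the alternatives. Lrp5, the coreceptor that Dkk1 and Dkk2 occupy, fell from 442 and 450 CPM in WT to 74.8 and 65.9 in K36M, 6.31-fold (edgeR adjusted p = 5.86e-19). Lrp6 fell 1.66-fold (adjusted p = 2.31e-11). The Frizzled genes Fzd9 and Fzd8 fell 75.9-fold and 12.3-fold, and Ror1, a Wnt5a receptor, 13.8-fold. The Dickkopf receptor gene Kremen1 stood at 53.3 ± 1.06 and 55.7 ± 0.0473 CPM (adjusted p = 0.232), a small difference whose sign depended on scaling, and Kremen2 at 0.389 ± 0.134 and 0.514 ± 0.0864 CPM (adjusted p = 0.438). Glypicans are cell surface proteoglycans that hold Wnts and bind Notum. The 3 tested of 6 fell, Gpc6 5.88-fold, Gpc4 4.74-fold and Gpc1 1.23-fold, beside 37.1% of all tested genes called lower.

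Of 13 other secreted Wnt modulators 7 were tested, of which 6 rose and 1 fell (median 1.94), beside 38.5% of all tested genes higher and 37.1% lower. Igfbp4, an IGF-binding protein also described as a Wnt antagonist, rose from 32.1 ± 0.745 to 865 ± 29.8 CPM. Serpinf1, the PEDF gene, rose 1.82-fold. The R-spondins, which enhance Wnt signaling through Lgr receptors, went both ways: Rspo2 fell from 329 ± 0.599 to 41.5 ± 0.604 CPM, and Rspo1 and Rspo3 rose 15.3-fold and 3.83-fold. Rspo1 had 6 and 9.12 counts in WT and a count ratio interval of 9.27 to 27.9. Of 8 tested genes on the list of inhibitor receptors and membrane inhibitors 4 rose and 2 fell (75% called, median 0.80). That list also holds the R-spondin receptor genes Lgr4, Lgr5 and Lgr6, so these counts are not of inhibitors alone. Lgr4, the gene with the highest CPM on the list, fell from 777 ± 5.54 to 72.5 ± 2.59 CPM. Lgr6 rose 2.41-fold and Lgr5, with 2.45 counts in WT, had a count ratio interval of 29.3 to 883. Apcdd1, a membrane-bound Wnt inhibitor gene, rose from 0.709 ± 0.0812 to 13.8 ± 0.210 CPM.

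Among genes that Wnt signaling itself is known to induce, 10 of 14 tested rose and 3 fell (median 1.16, 92.9% called beside 75.6% of all tested genes). Over all tested genes 38.5% were higher and 37.1% lower. With only genes of at least 5 CPM in either group, 5 rose and 3 fell. Axin2 and Lgr5, below 0.337 CPM in both WT libraries, passed the filter only through K36M, where they were higher. This list overlaps others in Lgr5, Rnf43, Znrf3, Apcdd1, Tcf7 and Lef1. Axin2, the feedback gene most often read as a sign of beta-catenin activity, stood at 0.121 and 0.130 CPM in WT and 3.91 and 3.17 CPM in K36M, with 6 counts in WT and a count ratio interval of 13.1 to 79.3 (edgeR adjusted p = 1.86e-10). Notum, another feedback inhibitor, rose in the same libraries. Dkk1, also named above as one, had 2.03 and 1.31 counts in WT and 0 and 1.02 in K36M. Tcf7, 1 of the 3 genes on the induced list that fell, did so 7.56-fold. Whether a change in Wnt signaling is behind any of these values was not tested. Ccnd1, the cyclin D1 gene, rose 1.70-fold. Of 16 signal transduction genes 8 fell and 3 rose (68.8% called, median -0.21). Ctnnb1, the beta-catenin gene, fell 1.59-fold, and the transcription factor genes Tcf7, Tcf7l2 and Tcf7l1 fell 7.56-fold, 4.99-fold and 2.44-fold.

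**Figure D4:**
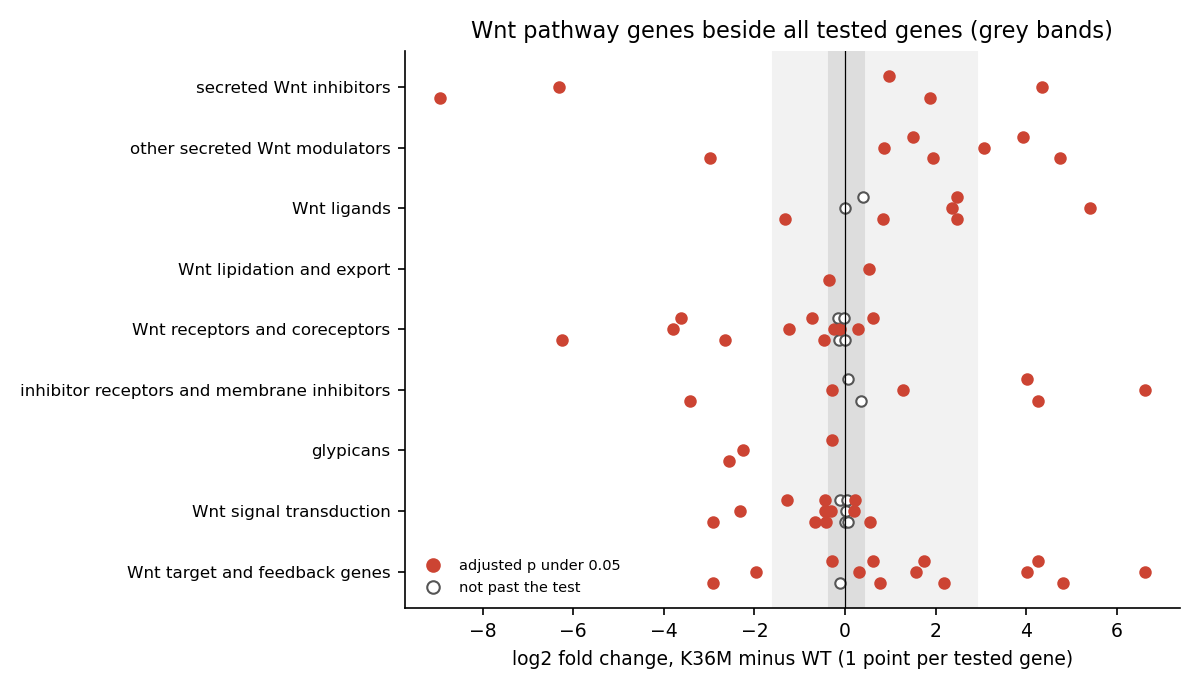
Log2 fold change (K36M minus WT) of every tested gene in the inhibitor list and in 8 other Wnt lists, 1 point per gene, filled where the adjusted p is under 0.05. The grey bands run from the 25th to the 75th percentile (-0.35 to 0.41) and from the 5th to the 95th (-1.60 to 2.91) of all tested genes, and 3 of the 5 tested inhibitors, Sfrp2, Frzb and Notum, lie outside the wider band.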

How the data were processed

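RNA from 2 WT and 2 K36M libraries was taken with Trizol and prepared by the Illumina TruSeq protocol, per the labels. Per the submitters' processing notes, Bowtie 1.0.0 and RSEM 1.2.12 were used on mm9. For strand and poly(A) selection, the sources used here give nothing. The deposited matrix holds RSEM expected counts per gene symbol, used by the authors for EBSeq per the file headers. The authors' deposited table of 594 genes holds log2 values, which equal log2(f × expected count + 1) with 1 factor f for each library (largest difference 5.0e-09), and a fold, the ratio K36M over WT of the unlogged group means.

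Expected counts were rounded and tested with edgeR 4.0.16 (R 4.3.3): filterByExpr, TMM, quasi-likelihood F test of group (K36M minus WT), Benjamini-Hochberg over 13162 genes, called at an adjusted p under 0.05. The spread of each gene was moderated toward that of all tested genes, with 15.7 prior against 2 residual degrees of freedom. SE is the log2 fold change divided by the root of F. For the large changes of Sfrp2, Frzb and Notum it is narrower than counting error, so their count ratio intervals are given too. Ratio intervals are exact (Clopper-Pearson, 95%) on rounded group counts scaled by depth and, like the floor of 3 counts (0.0528 to 0.13 CPM per library), cover counting error only. Promoter letters and flanking genes come from RefSeq GRCm38.p6 and exon lengths from GENCODE M21, not from mm9. Besides the 10 members, genes named from each Wnt list were up to 4 with the largest change (called, at least 2-fold, at least 1 CPM) and the most abundant, with Lrp5, Lrp6, Kremen1, Kremen2, Ctnnb1, Axin2 and the flanking genes of members changed at least 2-fold. Members and lists were chosen with earlier results of these data known. Alternatives were other scalings, DESeq2 1.42.0, limma-voom (limma 3.58.1), other filters, the replicate block and leaving out each library.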

Additional observations from a re-analysis of the deposited data

How the results depend on the processing

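The calls and directions of Sfrp1, Sfrp2, Frzb, Dkk3 and Notum were kept under all 13 alternatives. Log2 fold changes ranged from 1.76 to 1.99 for Sfrp1, -9.24 to -8.54 for Sfrp2, -6.40 to -6.20 for Frzb, 0.88 to 1.07 for Dkk3 and 4.24 to 4.46 for Notum, and the largest adjusted p was 7.53e-05 (Dkk3, limma-voom). A sixth inhibitor was called with no low-count filter (Wif1) and without WT replicate 1 (Sfrp4). Calls over all genes numbered 9128 to 9953 when 1 library was left out and 8678 (DESeq2 Wald test) to 10583 (no low-count filter) under the other alternatives with another test, scaling or filter, apart from 8193 among genes of at least 5 CPM, of which fewer were tested. The authors' factors turned the small differences of Kremen1 and Plrg1 to -0.023 and -0.025, and the WT over K36M ratio of summed inhibitor levels was 4.31 with them, 3.92 with total counts and 4.08 with the longest transcript as length, an alternative added after seeing the data. With a mean of at least 5 CPM fewer genes of the Wnt lists were tested. Called were then 8 Wnt target genes (5 higher, 3 lower), 2 ligand genes (2 higher, 0 lower) and 4 other modulator genes (3 higher, 1 lower). Same-numbered libraries did not deviate together over all tested genes (r = 0.0026). No pairing by number was seen, but 1 correlation over all genes cannot exclude a pairing that touches part of them. With the replicate block 9804 genes and the same count of inhibitors, 5, were called. Depth limits Dkk1, Dkk2, Sfrp4, Sfrp5 and Wif1, with at most 28 counts in a group.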
